A study of Mus musculus with 10 samples.

Results

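Of the genes for subunits of the GABA-A receptor, 7 were followed here: Gabra2, Gabra3, Gabra4 and Gabra5, which encode α subunits, Gabrb1 and Gabrb2, which encode β subunits, and Gabrd, which encodes the δ subunit. Their probes were found by the RefSeq accession that the array's design gives to each probe, and measured values played no part in the choice. The search returned 8 probes for the 7 genes, of 39429 probes and 20144 named genes on the array: 1 probe per gene, except for Gabra3, which had 2 probes that both carry the accession NM_008067. The series compared RNA of the adult mouse hippocampus between 5 DLK wild-type mice (WT) and 5 DLK conditional knockout mice (cKO), 1 mouse per array, so that each replicate is a separate animal. Map3k12 encodes DLK (dual leucine zipper kinase), a neuronal kinase that acts upstream of JNK. Loss of DLK was induced with a tamoxifen diet of 3 weeks, and the WT mice ate the same diet, so both groups share the drug. The labels call the mice adult and do not state their sex, their age in weeks, the recombinase, the cells in which it acts or the exons removed. On every array Cy5 marked the mouse's RNA and Cy3 marked a commercial pool, the Universal mouse reference. Each value is the log2 of the sample signal over the reference signal, each difference is the cKO mean minus the WT mean, and an SD is over the 5 mice of a group.

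GABA-A receptors are pentameric chloride channels opened by GABA, the main inhibitory transmitter of the adult brain, and most contain α and β subunits together with a γ or a δ subunit. Receptors with α2 or α3 gather mostly at synapses, α5 receptors of hippocampal pyramidal cells lie largely outside them and carry tonic inhibition, and α4 with δ forms extrasynaptic receptors of dentate granule cells that are sensitive to neurosteroids. The α subunit also sets whether a receptor binds classical benzodiazepines, which α4 receptors do not.

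The promoter windows of Gabra4, Gabra5 and Gabrb1 are shown because the first pair had the highest correlation of log ratios over the 10 arrays, and because Gabra4 and 1 of the 2 listed starts of Gabrb1 lie close together on opposite strands. Each sequence holds the 250 bases before a transcript start, 5′ to 3′ on the strand of the gene, from RefSeq on build GRCm38.p6. Capitals mark GC boxes, the binding motif of Sp1-type factors. The Gabra4 window is chr5:71658309-71658558 on the minus strand, the Gabra5 window is chr7:57510060-57510309 on the minus strand, and the window of that Gabrb1 start is chr5:71657671-71657920 on the plus strand.
Gabra4: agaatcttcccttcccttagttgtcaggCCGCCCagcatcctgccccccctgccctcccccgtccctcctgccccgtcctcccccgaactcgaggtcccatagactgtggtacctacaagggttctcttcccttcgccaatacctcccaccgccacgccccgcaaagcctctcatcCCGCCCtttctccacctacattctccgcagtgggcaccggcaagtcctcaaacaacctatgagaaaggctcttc
Gabra5: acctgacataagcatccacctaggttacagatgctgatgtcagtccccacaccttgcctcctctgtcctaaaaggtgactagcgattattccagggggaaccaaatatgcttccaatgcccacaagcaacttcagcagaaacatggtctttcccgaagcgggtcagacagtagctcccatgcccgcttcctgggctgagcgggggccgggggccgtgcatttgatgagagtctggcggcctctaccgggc
Gabrb1: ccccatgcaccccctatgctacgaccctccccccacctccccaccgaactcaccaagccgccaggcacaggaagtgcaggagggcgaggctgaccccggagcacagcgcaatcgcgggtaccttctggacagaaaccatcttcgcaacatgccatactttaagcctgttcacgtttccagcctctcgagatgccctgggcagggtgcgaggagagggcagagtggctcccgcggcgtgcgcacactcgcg

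The promoter table held 10 windows for 6 of the 7 genes, and Gabrd had no entry. Windows were searched on both strands for the AP-1 motif TGANTCA, the motif of Jun and Fos dimers (JNK phosphorylates Jun), for the CRE motif TGACGTCA, for the GC box GGGCGG and for the TATA box TATAAA. Neither AP-1 nor CRE letters were in any of the 10 windows. Over all 32851 windows of the same length, 6.75% held the AP-1 motif and 1.55% held the CRE motif. GC boxes were in 3 of the 10 windows, against 32.7% of all windows, and TATA boxes in 3 of 10, against 12.4%. The 2 Gabra3 windows among these overlap and hold the same TATA site. Gabra4 carried GC boxes at 222 to 217 and at 74 to 69 bases before its start, read as CCGCCC on the strand of the gene. The first Gabrb2 window held TATAAA at 30 to 25 bases before the start. GC content was 61.2% for Gabra4, 56.4% for Gabra5 and 64.4% for this Gabrb1 window (50.8% for the other), where the median of all windows was 52.4% and the 10 windows ranged from 36.8% to 70.0%. These matches describe letters only.

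The median Cy5 signal was 146 to 202 on the 10 arrays, with local backgrounds of 29 to 31, and 69.6% to 76.1% of probes exceeded background clearly enough to be marked as well above it. The Map3k12 probe, a check of the labels, read 1.93 ± 0.19 in WT and 0.51 ± 0.24 in cKO mice (SD, n = 5 each), and each cKO array lay below each WT array. The difference of −1.41 (SE 0.12) had a limma adjusted p of 0.000502. On cKO replicate 2 the Cy3 signal of this probe was 314, against 102.5 to 128 on every other array. Its Cy5 signal there was 390.5, where the other cKO arrays read 157.5 to 253 and the WT arrays 495 to 746. The low ratio of that array, 0.107, thus rests in part on its high reference signal. The labels do not state whether this probe lies in the removed exons. Slide 1 held 4 cKO arrays, slide 2 held 3 WT arrays and cKO replicate 2, and slide 3 held 2 WT arrays, so genotype and slide could be separated on slide 2 alone. Markers of hippocampal neurons were well above background on all 10 arrays (all 5 dentate granule cell, all 5 CA1 and all 6 retained CA2 and CA3 markers). So were all 6 striatal and all 5 thalamic markers. WT replicate 1 stood apart, with a striatal marker mean of 2.91, where the other 4 WT arrays lay between 1.44 and 1.86 and the cKO arrays between 1.64 and 1.997. Without it the differences described below were −0.11 for Gabra2, 0.07 for the brighter Gabra3 probe, −0.15 for the dim one, 0.0849 for Gabra4, 0.07 for Gabra5, −0.0710 for Gabrb1, 0.13 for Gabrb2 and 0.24 for Gabrd, each with a limma adjusted p of 0.99986.

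None of the 7 genes differed between genotypes by the test. The cKO mean was within 0.16 log2 of the WT mean for the brightest probe of every gene, and the groups overlapped for all 8 probes. Across all 28682 probes tested, 0.0105% passed an adjusted p under 0.05, 3.82% had an unadjusted p under 0.05 (2.78% with a higher and 1.04% with a lower cKO mean) and 0.757% had groups that did not overlap. The corresponding counts among the 8 subunit probes were 0, 0 and 0, with a limma adjusted p of 0.99995 for each. In bulk tissue, fewer cells of a type and less RNA per cell cannot be told apart.

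**Figure D1:**
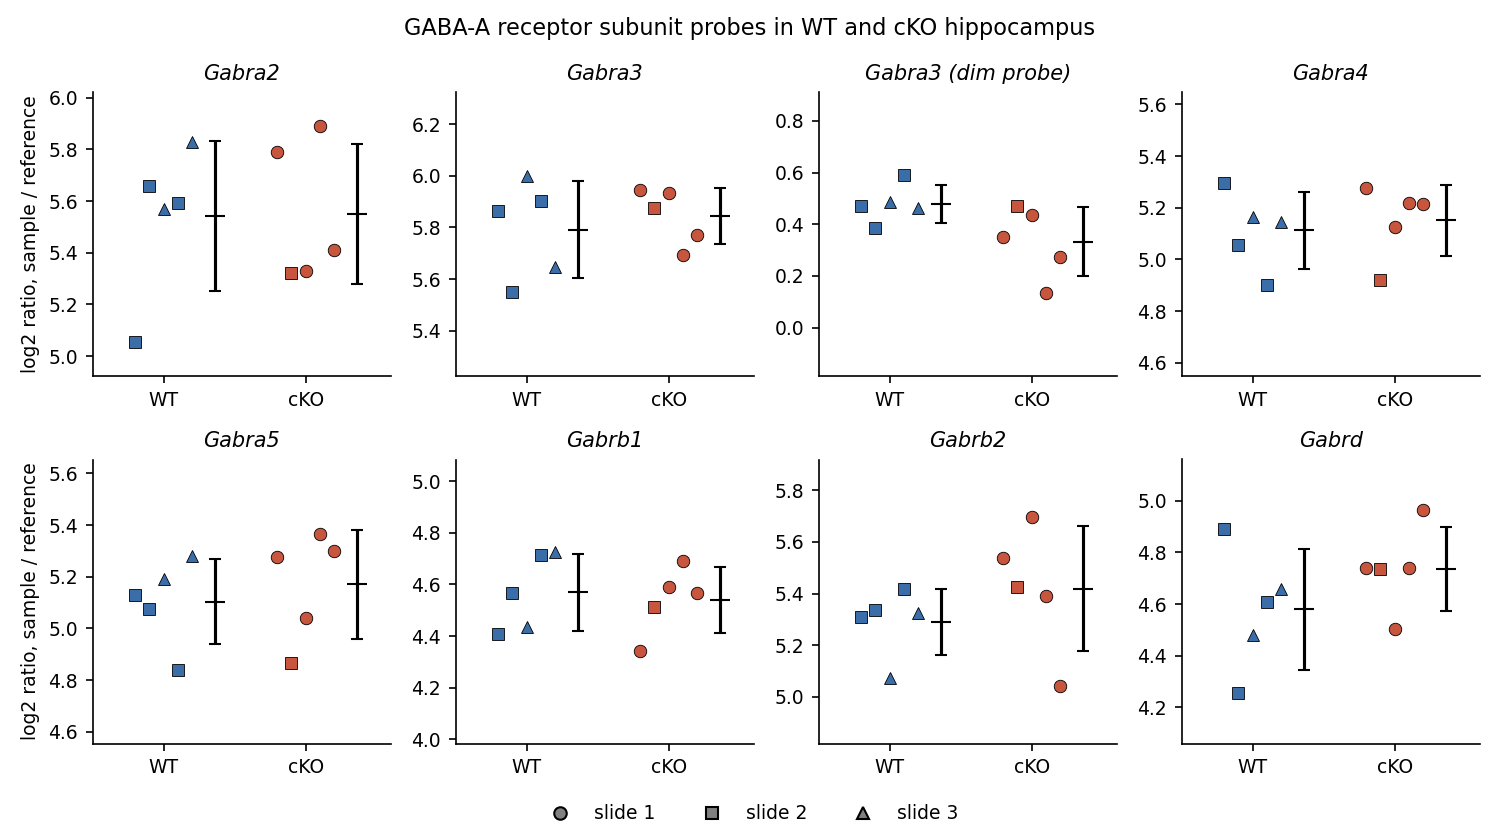
Log2 ratio of sample over reference (vertical axis) for the 8 probes of the 7 subunit genes in WT and cKO mice. Points are mice, shapes are slides, the bar is the mean with its SD (n = 5), every panel spans the same number of log2 units, and WT and cKO points overlap in all 8 panels.

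Gabra2 encodes the α2 subunit, which is abundant at synapses of hippocampal principal cells, including those on the axon initial segment. Its log2 ratios in WT replicates 1 to 5 were 5.05, 5.66, 5.57, 5.59 and 5.83. In cKO replicates 1 to 5 they were 5.79, 5.32, 5.33, 5.89 and 5.41. WT replicate 1 was the lowest of the 10 arrays, and 1 cKO array lay above all WT arrays. The means were 5.54 ± 0.29 for WT and 5.55 ± 0.27 for cKO mice (SD, n = 5 each), and this probe had the widest spread of the 8. The difference was 0.01 (SE 0.15), and its 95% interval ran from 80.4% to 126% of the WT level. Without WT replicate 1 the difference turned to −0.11. That array also held the highest striatal marker mean, and the part of this in the Gabra2 value was not tested.

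Gabra3 encodes the α3 subunit, which is found in brainstem monoaminergic neurons and in some cortical neurons. The brighter of its probes read 5.86, 5.55, 6.0002, 5.90 and 5.65 in WT mice and 5.95, 5.87, 5.93, 5.69 and 5.77 in cKO mice. All 5 cKO values lay inside the WT range. The difference was 0.05 (SE 0.09), between means of 5.79 ± 0.19 and 5.84 ± 0.11 (SD, n = 5 each).

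The second Gabra3 probe was dim. Its Cy5 signal was 52.5 to 70.5, against 5605.5 to 10633 for the brighter probe, and it was above background on all 5 WT arrays but on 3 of the 5 cKO arrays. The log2 ratios of the dim probe were 0.47, 0.39, 0.49, 0.59 and 0.46 in WT and 0.35, 0.47, 0.44, 0.13 and 0.27 in cKO, with 3 cKO arrays below all WT arrays. Its difference was −0.15 (SE 0.07, limma unadjusted p = 0.0576, adjusted p = 0.99995), with the opposite sign to that of the brighter probe. The offset added to each signal pulls ratios of such dim spots towards 0. Both probes carry the same transcript accession, and the stretch of the transcript that each one reads is not stated in the files used here.

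Gabra4 encodes the α4 subunit, the partner of δ in dentate granule cells. WT mice read 5.30, 5.05, 5.17, 4.90 and 5.14, and cKO mice read 5.28, 4.92, 5.12, 5.22 and 5.21. No cKO array left the WT range, and the lowest array of each group lay on slide 2. The means of 5.11 ± 0.15 and 5.15 ± 0.14 (SD, n = 5 each) differed by 0.04 (SE 0.08), with an interval of 90.4% to 117% of the WT level.

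Gabra5 encodes the α5 subunit of extrasynaptic receptors in pyramidal cells, which takes part in hippocampus-dependent learning. Values were 5.13, 5.08, 5.19, 4.84 and 5.28 in WT and 5.28, 4.87, 5.04, 5.37 and 5.30 in cKO hippocampus. cKO replicates 4 and 5 lay above all WT arrays, cKO replicate 2 lay near the bottom of the WT range, and the means were 5.10 ± 0.16 and 5.17 ± 0.21 (SD, n = 5 each). The difference was 0.07 (SE 0.11), with an interval of 89.4% to 123% of the WT level. For Gabra2, Gabra4 and Gabra5 the reference pool gave almost no signal, with Cy3 of 47 to 61 and above background on at most 1 of the 10 arrays, so the denominators of these ratios sit close to background.

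Gabrb1 encodes the β1 subunit, and it was the 1 gene of the 7 with a lower cKO mean on its brightest probe. It read 4.41, 4.57, 4.44, 4.71 and 4.73 in WT and 4.34, 4.51, 4.59, 4.69 and 4.57 in cKO mice. cKO replicate 1 was below all WT arrays and the other 4 were inside their range. The means of 4.57 ± 0.15 and 4.54 ± 0.13 (SD, n = 5 each) differed by −0.03 (SE 0.08), which is smaller than either SD.

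Gabrb2 encodes the β2 subunit, which is among the most widely expressed subunits of the brain. The WT values were 5.31, 5.34, 5.07, 5.42 and 5.32, and the cKO values were 5.54, 5.42, 5.70, 5.39 and 5.04. Here 3 cKO arrays lay above all WT arrays and cKO replicate 5 lay below them all. The means of 5.29 ± 0.13 and 5.42 ± 0.24 (SD, n = 5 each) differed by 0.13 (SE 0.11, limma unadjusted p = 0.259, adjusted p = 0.99995). Without cKO replicate 5 the difference was 0.22 (limma unadjusted p = 0.0219, adjusted p = 0.99996). Leaving out the lowest cKO array could only raise the difference, and leaving out any other array gave 0.06 to 0.16. Over all alternatives its smallest limma adjusted p was 0.468, with array weights.

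Gabrd encodes the δ subunit of extrasynaptic receptors, which in the hippocampus is most abundant in dentate granule cells and also occurs in interneurons. WT mice had log2 ratios of 4.89, 4.26, 4.48, 4.61 and 4.66. cKO mice had 4.74, 4.73, 4.51, 4.74 and 4.96. cKO replicate 5 was the highest array, WT replicate 1 came next, and the lowest 2 arrays were WT. The means were 4.58 ± 0.23 and 4.74 ± 0.16 (SD, n = 5 each), and the difference of 0.16 (SE 0.11, limma unadjusted p = 0.180, adjusted p = 0.99995) was the largest of the 7 genes. Its interval ran from 94.4% to 132% of the WT level. Without WT replicate 1 the difference was 0.24 (limma unadjusted p = 0.0396, adjusted p = 0.99986). That array had the highest WT value of Gabrd, so leaving it out could only raise the difference. Its striatal markers were high too, and their part in the Gabrd value was not tested. The smallest limma adjusted p over all alternatives was 0.475, with array weights. The mean of the 5 dentate granule cell markers was 1.82 to 2.23 in WT and 1.605 to 2.28 in cKO mice.

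Of the 7 genes, 6 had a higher and 1 a lower cKO mean as normalised here, but 2 were higher and 5 lower both with the Cy5 channel alone and with median centring in place of loess, and 3 were higher and 4 lower with slide as a fixed block. Among all probes tested, 54.6% had a higher cKO mean. Median centring moved the median difference of all probes tested from 0.01 to −0.0561, so signs under it are relative to that shift. The median difference over the 8 probes was 0.05, beside 0.01 over all probes tested, and it was −0.0604 with the Cy5 channel alone, −0.0386 with median centring and −0.0328 with slide as a fixed block. The 95% intervals of the 7 brightest probes together spanned a 0.804-fold to a 1.32-fold level in cKO mice, from the lower bound of Gabra2 to the upper bound of Gabrd, and the interval of each other gene was narrower. The median half-width of such an interval over all probes tested was 0.162 log2.

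**Figure D2:**
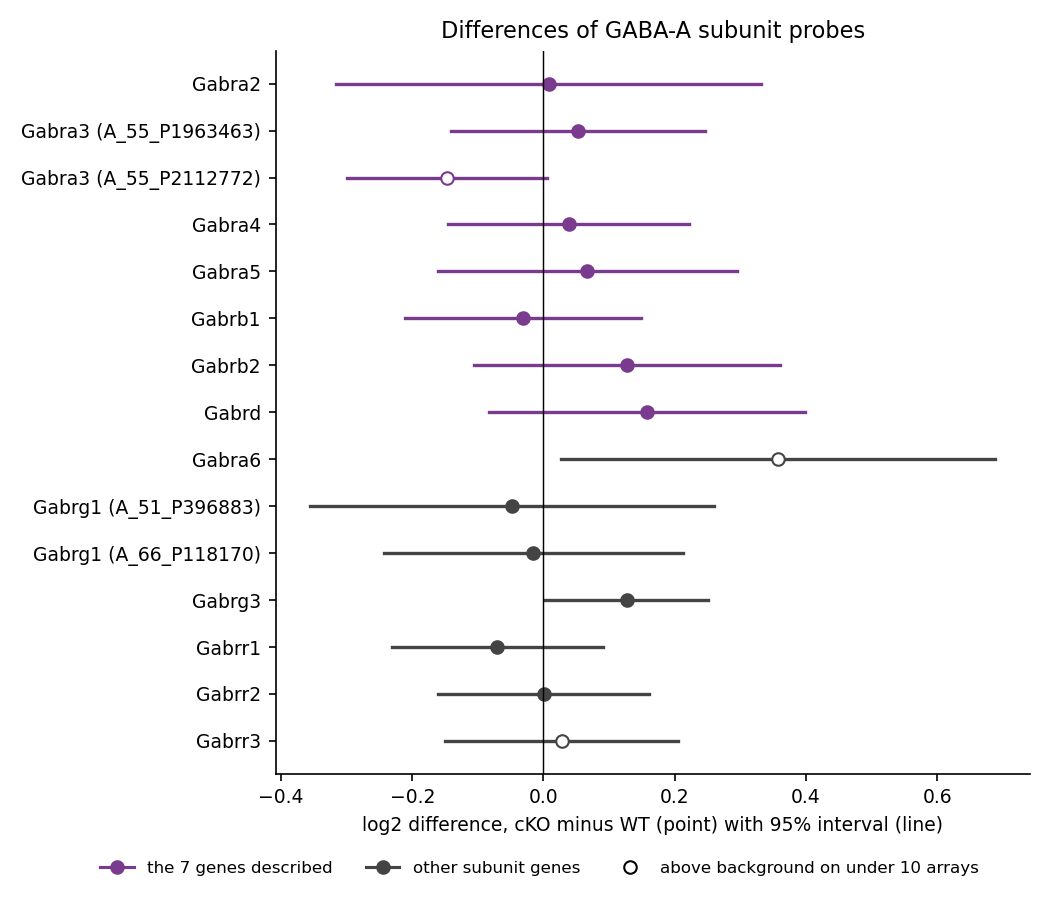
Difference in log2 ratio, cKO minus WT (horizontal axis, points), with its 95% interval (lines) for the 8 probes of the 7 genes and 7 probes of other subunit genes. Open points were above background on fewer than 10 arrays. The intervals of all 8 probes of the 7 genes described include 0, and those of Gabra6 and Gabrg3 do not.

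The Cy5 channel alone, which leaves out the reference, gave differences of −0.12 (SE 0.17) for Gabra2, −0.05 (SE 0.12) for Gabra3, −0.08 (SE 0.08) for Gabra4 and −0.07 (SE 0.10) for Gabra5. For the β and δ genes it gave −0.10 (SE 0.15) for Gabrb1, 0.07 (SE 0.13) for Gabrb2 and 0.07 (SE 0.16) for Gabrd. Gabrb2 and Gabrd kept a higher cKO mean and Gabrb1 a lower one, and the α genes changed sign. With slide as a fixed block, where the value rests on cKO replicate 2 against 3 WT arrays, Gabra2 was at −0.11, Gabra4 at −0.16 and Gabra5 at −0.15. Gabra3 was then at 0.10, Gabrb1 at −0.05, Gabrb2 at 0.07 and Gabrd at 0.15.

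**Figure D3:**
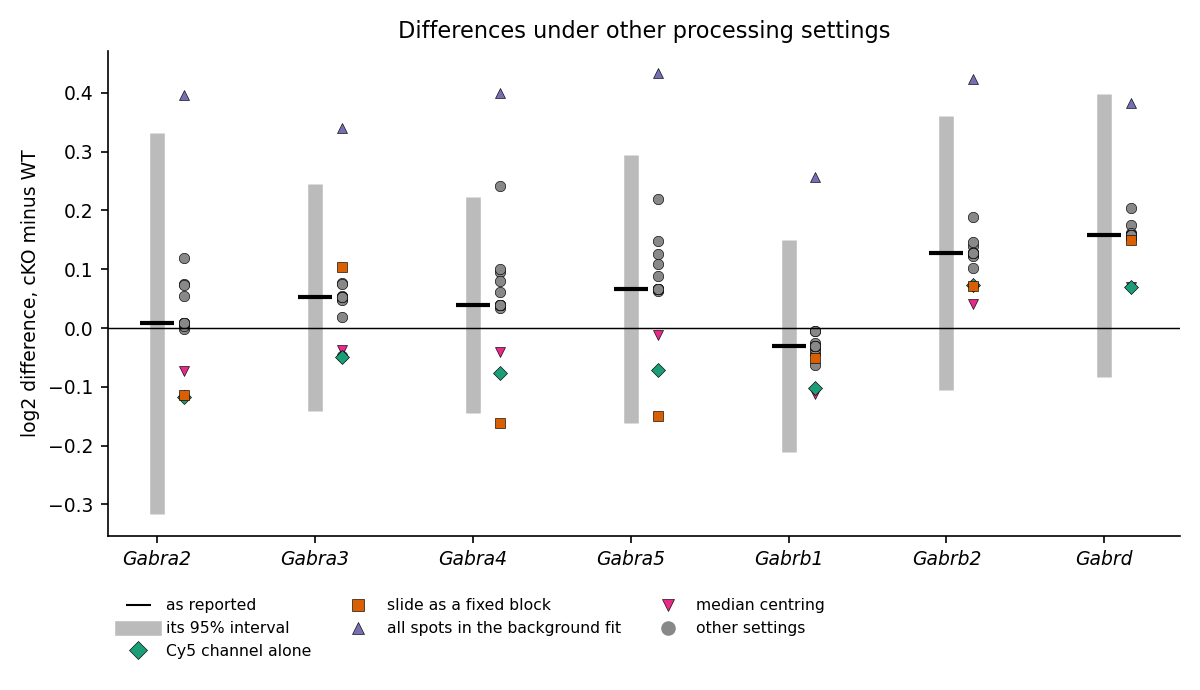
Difference in log2 ratio, cKO minus WT (vertical axis), of the brightest probe of each of the 7 genes as reported (black line, with its 95% interval in grey) and under other processing settings (symbols). Gabra2, Gabra3, Gabra4, Gabra5 and Gabrb1 lie on both sides of 0, and Gabrb2 and Gabrd lie above 0 under each setting drawn.

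Beside the 7, another 9 GABA-A subunit genes were looked up, of which 6 had a probe bright enough to be tested. Among the 6, 4 had a higher and 2 a lower cKO mean, where 54.6% of all probes tested were higher. The median difference was 0.01, none passed the adjusted threshold in limma, and 2 had an unadjusted p under 0.05. Both had higher cKO means, a call that 2.78% of all probes tested met. Gabra6, for the α6 subunit known from cerebellar granule cells, had a dim probe that entered the test through 4 cKO arrays and 1 WT array, with Cy3 above background on none, so the filter favoured a higher cKO mean. Its measured means were 0.35 ± 0.17 in WT and 0.71 ± 0.37 in cKO mice (SD, n = 5 each), and over the alternatives the difference ranged from 0.23 to 1.31. Gabrg3, for the γ3 subunit, was at 0.13 (SE 0.06, limma unadjusted p = 0.0460, adjusted p = 0.99995), and the value turned to −0.18 in the Cy5 channel alone. A second Gabrg3 probe was too dim to be tested, above background on 2 WT arrays and 0 cKO arrays. Its mean was 0.25 in WT and 0.21 in cKO mice, the opposite direction. The 7 genes and these other subunit genes were not tested against each other.

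Each of the 8 probes above had 1 spot per array, so their spot-to-spot error was not measured. Gabrg1, for the γ1 subunit, had a dim probe with 1 spot per array, at 1.07 in WT and 1.05 in cKO mice. Its brighter probe, at 4.79 in WT and 4.74 in cKO mice, was printed 10 times per array. Single spots of the brighter probe had an SD of 0.0917 to 0.342 log2 within an array. Means over the 10 spots, which carry less of that error than a single spot, had an SD of 0.227 over WT and 0.275 over cKO mice. Marked population outliers were left in for these spot values. With them dropped, as in the test, the SDs were 0.271 over WT and 0.262 over cKO mice.

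Over the 10 arrays, the pair of the 7 genes with the highest r of log ratios, of 21 pairs, was Gabra4 with Gabra5. WT replicate 4 and cKO replicate 2 were the lowest for both genes. Pearson's r was 0.839 (permutation p = 0.00337, adjusted over 21 pairs 0.0708) and Spearman's rho was 0.709 (permutation p = 0.0265, adjusted 0.504). Without those 2 arrays, which lie farthest from the median of Gabra4, r was 0.459, so the relation rests on them. Both arrays lay on slide 2, and no slide held the 6 arrays needed for a value of its own. After removal of the genotype means r was 0.835. In the Cy5 channel alone it was 0.677, below Gabra2 with Gabrb1 (0.811) and Gabrb1 with Gabrb2 (0.725), and Gabra4 with Gabrd had r = 0.409, and 0.844 without the same 2 arrays. The neighbours Gabra4 and Gabrb1 had r = −0.447 (permutation p = 0.196, adjusted 0.815) and rho = −0.527 (permutation p = 0.124, adjusted 0.504). Their r was −0.510 without the 2 farthest arrays and 0.204 in the Cy5 channel alone. The other pairs ranged down to r = −0.520. Points of these relations share the array, its normalisation and, for the log ratios, the reference signal.

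**Figure D4:**
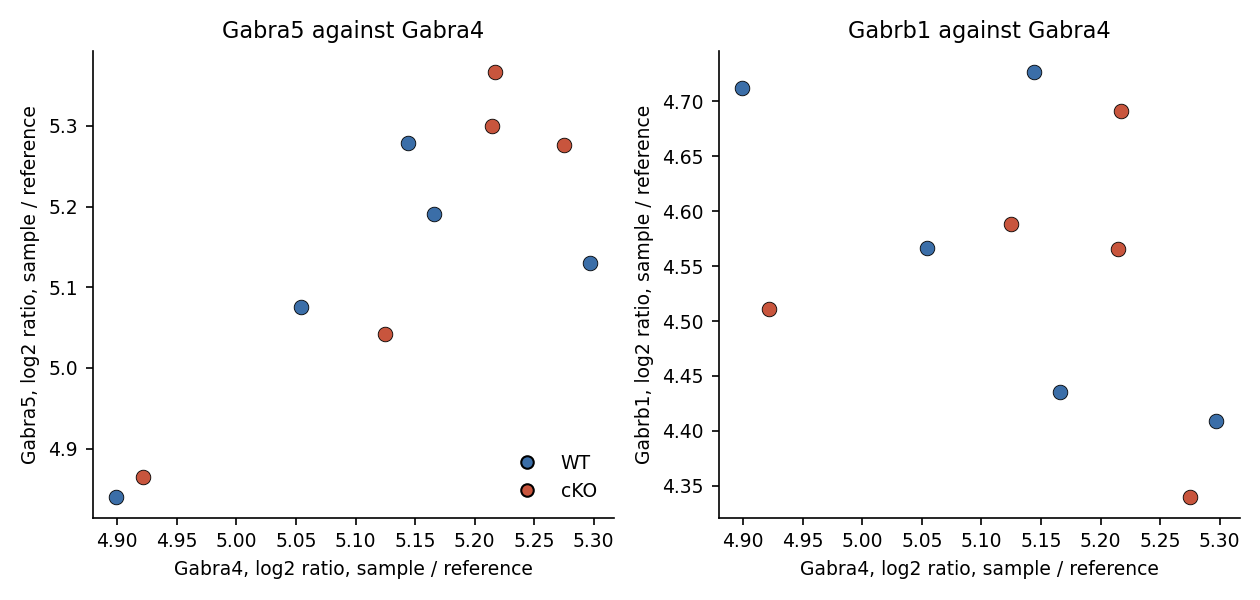
Log2 ratio of Gabra5 (left) and Gabrb1 (right) against that of Gabra4 on the 10 arrays, 1 point per mouse coloured by genotype. For Gabra5 the lowest WT and the lowest cKO point stand apart at the lower left, and r falls from 0.839 to 0.459 without them.

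Among 16173 other named genes, those whose log ratios ran most like each subunit gene over the 10 arrays were picked by Pearson's r, as a description. For Gabra2 these were Banp (r = 0.938) and Rtl4 (r = 0.919), and in the Cy5 channel alone the values were 0.857 and 0.836. Gabra3 ran with Rdh8 (0.893) and Klhdc8b (0.876), which had 0.490 and 0.489 in Cy5 alone. The closest to Gabra4 were Olfr702 (0.959) and Nsl1 (0.920), and Olfr702 turned to −0.361 in Cy5 alone. Gabra5 ran with Kbtbd11 (0.969, and 0.898 in Cy5 alone) and Umodl1 (0.951, and 0.546). Gabrb1 ran with 6820408C15Rik (0.885, and −0.115 in Cy5 alone) and Gm833 (0.869, and 0.532), and Gabrb2 with Olfr166 (0.903, and −0.107) and Syngr3 (0.890, and 0.723). Gabrd was closest to Accs (0.952, and 0.818 in Cy5 alone) and Irf2bp2 (0.940, and 0.527). These values share the array and the reference signal, and 3 of the 14 turned negative in the sample channel.

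Set against the means of 11 lists of cell type and region markers, the 7 genes gave 77 relations over the 10 arrays, of which 5 had a permutation p under 0.05 and none an adjusted p under 0.05. Gabra5 with dentate granule cell markers had r = 0.807 (permutation p = 0.00534, adjusted 0.411), rho = 0.770 (permutation p = 0.0125, adjusted 0.480), and r = 0.631 without the 2 farthest arrays. Gabra2 with the same markers had r = 0.711 (permutation p = 0.0219, adjusted 0.421), rho = 0.806 (permutation p = 0.00756, adjusted 0.480), and r = 0.598 without the 2 farthest arrays. Gabrb2 with CA1 markers had r = 0.650 (permutation p = 0.0405, adjusted 0.624), rho = 0.733 (permutation p = 0.0204, adjusted 0.524), and r = 0.860 without the 2 farthest arrays. Gabra2 with striatal markers had r = −0.721 (permutation p = 0.0138, adjusted 0.421) and rho = −0.576 (permutation p = 0.0879, adjusted 0.794). Its r went to −0.120 without the 2 farthest arrays, WT replicate 1 among them. Gabrd with interneuron markers had r = 0.712 (permutation p = 0.0202, adjusted 0.421), rho = 0.636 (permutation p = 0.0549, adjusted 0.773), and r = 0.574 without the 2 farthest arrays. No marker passed the adjusted threshold, and the list means were not tested between genotypes. Choroid plexus marker means ranged from 0.41 to 1.20 in WT and from 1.28 to 2.68 in cKO mice, and all 7 markers had a higher cKO mean. For oligodendrocytes the ranges were 3.29 to 3.64 and 3.63 to 3.76, with 5 of 6 markers higher. Endothelium had 2.09 to 2.23 and 2.25 to 2.34, with 3 of 4 higher. Thalamus had −0.31 to −0.0936 and −0.0861 to 0.36, with 5 of 5 higher. These lists had the largest rises of the 11 in these same data. The dentate granule cell list differed by −0.09, with 3 of 5 markers lower, and the striatal list by −0.12, with 4 of 6 lower. Each other list had a higher cKO mean. Over all probes tested, 54.6% had a higher cKO mean, and 0.757% had groups that did not overlap. The latter share is for single probes, and none was computed for list means. The part of these cell types and regions in the subunit values was not tested.

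In the wider GABA system, none of the genes in the 5 lists below passed the adjusted threshold, each with a limma adjusted p of 0.99995. For synthesis, transport and breakdown of GABA, 7 of 8 genes had a higher cKO mean, against 54.6% of all probes tested, and the median difference was 0.12. An unadjusted p under 0.05 was reached by 1 gene, against 2.78% of all probes in that direction. That gene was Gad2, a GABA-synthesising enzyme of interneuron terminals, at 4.63 ± 0.20 in WT and 4.90 ± 0.07 in cKO (SD, n = 5 each), a difference of 0.27 (SE 0.09, limma unadjusted p = 0.00836) with each cKO array above each WT array, a separation either way that 0.757% of all probes showed. In the Cy5 channel alone the Gad2 difference was 0.0256 (SE 0.10), and with median centring it was 0.19 (SE 0.12). Slc6a13, a GABA transporter of the meninges, was at 0.22 (SE 0.10), with 4 cKO arrays above all WT arrays. All 9 interneuron markers, which include Gad1, Gad2 and Slc32a1 of this list, had a higher cKO mean, against 54.6% of all probes tested. The mean of these markers was 3.573 to 3.676 in WT and 3.678 to 3.823 in cKO mice, so the highest WT and the lowest cKO array nearly met. No share of separated groups was computed for list means, and this mean was not tested between genotypes. The part of cell makeup in these values was not tested.

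Of genes that anchor and assemble the receptor, 15 were tested, with 11 higher and 4 lower cKO means and a median difference of 0.04. Among all probes tested, 54.6% had a higher cKO mean. None of the 15 had an unadjusted p under 0.05, against 3.82% of all probes tested. Slitrk3, an adhesion protein of inhibitory synapses, was at 0.21 (SE 0.14). Plcl1, a binding partner of GABARAP and of the receptor's β subunits, was at 0.12 (SE 0.08), and at −0.14 with the processed signals. The metabotropic GABA-B receptor list split 4 higher and 2 lower of 6, beside the same 54.6%, with a median of 0.04. No member of that list had an unadjusted p under 0.05, beside the same 3.82%. Its receptor subunit Gabbr1 was at 0.06 (SE 0.06) and the auxiliary subunit Kctd16 at 0.11 (SE 0.10), and they turned to −0.03 with median centring and −0.00707 in the Cy5 channel alone, respectively.

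All 4 tested genes of chloride transport, which sets whether the open channel inhibits, had a higher cKO mean, against 54.6% of all probes tested. Their median difference was 0.14, and 2 had an unadjusted p under 0.05, against 2.78% of all probes in that direction. Wnk3 had no matched probe. Slc12a2, for the chloride importer NKCC1, was at 0.19 ± 0.22 in WT and 0.57 ± 0.15 in cKO (SD, n = 5 each), a difference of 0.38 (SE 0.10, limma unadjusted p = 0.00313) with 3 cKO arrays above all WT arrays. In the Cy5 channel alone it was 0.33 (SE 0.13). Stk39, a kinase that activates NKCC1, was at 0.18 (SE 0.06, limma unadjusted p = 0.0121), and at 0.12 (SE 0.07) in the Cy5 channel alone and 0.0883 (SE 0.08) with median centring. NKCC1 is also abundant in choroid plexus, whose 7 markers all had a higher cKO mean as given above, and the part of that tissue in the Slc12a2 value was not tested. For neurosteroid synthesis and the benzodiazepine-site ligand, 4 of 5 tested genes were higher, beside the same 54.6%, with a median of 0.05. Of these, 1 had an unadjusted p under 0.05, against 2.78% of all probes in that direction. Srd5a1, which makes the precursor of allopregnanolone, was at 0.13 (SE 0.06, limma unadjusted p = 0.0465), 0.0439 with median centring and 0.24 with slide as a fixed block, and Tspo, a mitochondrial outer membrane protein, was at 0.07 (SE 0.10), which was −0.11 with slide as a fixed block.

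**Figure D5:**
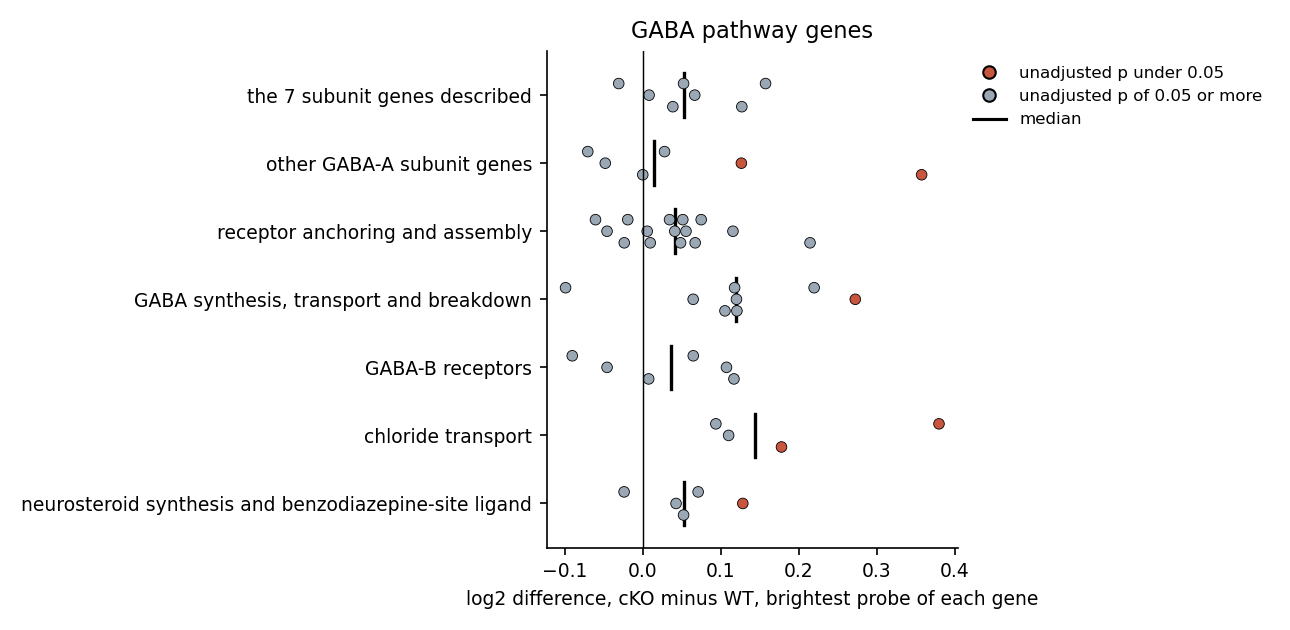
Difference in log2 ratio, cKO minus WT (horizontal axis), of the brightest probe of each gene, by group of GABA system genes (vertical axis). Points are genes, red points have an unadjusted p under 0.05, and the black line is the median of a group. The 7 subunit genes described lie between −0.03 and 0.16, with no red point.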

How the data were processed

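Spot intensity values (median pixels of spot and local background, both channels, not normalised) came from Agilent Feature Extraction 11.0.1.1, per the file headers. Processed intensity values in these deposited files are background-subtracted and dye-normalised per the file headers. The authors' deposited table of log2 values matched the ratios computed here (r of at least 0.99997 on every array), so it holds log2 of sample over reference. It served as an alternative.

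Spots marked as non-uniform were removed, backgrounds were corrected with normexp (offset 50) and ratios were normalised by loess within each array, without scaling between arrays, in R 4.3.3 with limma 3.58.1. Control spots had weight 0. Marked population outliers were dropped before spots of a probe were averaged. Of 39429 probes, 28682 had Cy5 well above background on at least 5 of 10 arrays. Probe accessions were named through a RefSeq table of GRCm38.p6, which matched 67.4% of probes. That table was used for names only, since the array design is on build mm9 per the file headers. Differences, standard errors and p-values came from limma's two-sided test (lmFit, eBayes), adjusted over all 28682 probes by Benjamini-Hochberg. The procedure was tested on simulated data. Permutation p-values of correlations were two-sided with 100000 resamples, or all orders of 9 arrays where 1 was left out.

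Every probe of the 7 genes is described, and the brightest tested probe stands for a gene. Of each pathway list the 2 genes with the smallest unadjusted p are named, and of similar genes the 2 with the highest r. Gabrg1 was named after its values were seen. Some genes of these lists are not reported here, and the counts leave them out. The genes and lists were chosen with earlier results of these data known. The number of arrays limits precision. Other settings are described in the closing section. No dyes were swapped, so a level includes the dye effect, which both genotypes share.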

Additional observations from a re-analysis of the deposited data

Results flagged for a closer look

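Among 54 groups of 5 arrays tested for 1 array far from the rest, 1 was found. The mean of the 6 striatal markers was 2.9133 on WT replicate 1, where the other 4 WT arrays lay between 1.4392 and 1.8561. Chance alone marks about 1 in 20 such groups. Without that array Gabra2 went from 0.01 to −0.11 and Gabrd from 0.16 to 0.24, and no subunit probe passed the adjusted threshold.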

How the results depend on the processing

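No subunit probe passed the adjusted threshold under any of 28 alternatives, 1 of which, without the 2 arrays of slide 3, was chosen after seeing the data. Over 22 named results, 557 of 602 alternative values kept direction and side of the threshold, 37 reversed, 5 gained and 3 lost the threshold. All 5 gains were of the Gabra4 with Gabra5 correlation and all 3 losses of Map3k12, so no gene difference gained it. The median over subunit probes, 0.05 as reported, was 0.39 when marked spots stayed in the background fit, where Gabrb1 was at 0.26. In that setting the median subunit value of WT replicate 2 moved by −1.82 and that of each other array by less than 0.01. With processed signals Gabra2 was at −0.00192 and Plcl1 at −0.14. With median centring Gabra2 was at −0.0736, Gabra3 at −0.0367, Gabra4 at −0.0404, Gabra5 at −0.0111, Gabbr1 at −0.0280 and Tspo at −0.0188. With Cy5 alone Gabra2 was at −0.12, Gabra3 at −0.0498, Gabra4 at −0.0760, Gabra5 at −0.0710, Kctd16 at −0.00707 and Gabrg3 at −0.18. With slide as a fixed block, and equally within slide 2, Gabra2 was at −0.11, Gabra4 at −0.16, Gabra5 at −0.15, Gabbr1 at −0.0223 and Tspo at −0.11. Tspo was at −0.00940 with array weights and −0.0283 without slide 3. The mean of both Gabra3 probes was at −0.0471. The cause of these sign changes was not tested. Leaving out 1 array at a time gave −0.11 to 0.0804 for Gabra2, −0.0085 to 0.10 for Gabra3, −0.0146 to 0.0960 for Gabra4, 0.00104 to 0.14 for Gabra5, −0.0710 to 0.0189 for Gabrb1, 0.06 to 0.22 for Gabrb2, 0.08 to 0.24 for Gabrd, −0.0127 to 0.12 for Tspo and 0.01 to 0.08 for the median. The dim Gabra3 probe stayed below 0, from −0.80 to −0.01. Its smallest limma unadjusted p was 0.0139 (adjusted p = 0.524), with slide as a random block. That fit used a correlation within slides of −0.131, and slide and genotype largely coincide. Map3k12 lost its call with marked spots left in (−1.26), in Cy5 alone (−1.17) and within slide 2 (−1.81), with limma adjusted p from 0.000154 to 0.969 over its alternatives. The value within slide 2 rests on cKO replicate 2, where the reference signal of the Map3k12 probe was high. The Gabra4 and Gabra5 relation ranged from r = 0.425 with processed signals to 0.987 with marked spots left in, with permutation p adjusted from 0.0152 to 0.971. Over all probes, 3 passed as reported, 4 without WT replicate 1 or WT replicate 2, 1 with marked spots left in, 1 in Cy5 alone and 0 within slide 2 (limma, 2389 at unadjusted p under 0.05). That unadjusted count, 1095 as reported, reached 3127 under array weights, 2297 where slide was a random block and 1678 without the filter, and it was 715 under median centring and 706 in Cy5 alone. With replicate number as a block, no subunit probe passed, the median stayed at 0.05 and 2 probes passed over all. Deviations of same-numbered arrays correlated at −0.560 to 0.162. These were not compared with differently numbered arrays, so they cannot decide whether the numbers pair the mice. Reference signals near background limit Gabra2, Gabra4 and Gabra5.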
